A study of Mus musculus with 6 samples.

Results

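The small non-coding RNAs of quadriceps muscle described here are the spliceosomal RNAs, the RNAs that guide their modification, the 7SL and 7SK RNAs and a few others. They were chosen by the gene biotype column of the table, as the rows whose biotype is or contains snRNA, scaRNA, misc_RNA or ribozyme and is not plain snoRNA. This gave 76 members of 20015 rows, and the 95 rows of plain snoRNA were not among them. RNA was sequenced from 6 libraries of quadriceps, 3 from ACL-injured and 3 from non-injured quadriceps, each group with the letters A, B and C. The anterior cruciate ligament (ACL) is the knee ligament that holds the shin bone in place under the thigh bone. All 6 libraries carry the labels skeletal muscle, total RNA and mouse, while other label text speaks of human tissue. The deposited table is named as myonuclear RNA, whereas the extraction text describes total RNA with no isolation of nuclei, so whether RNA outside the nucleus was measured is not settled. All rows are mouse gene models, and the values were treated as mouse. The sources used here give no strain, genotype, age, time since injury or way of injury, nor whether each library is a separate animal. The p-values thus cover the library-to-library spread alone, which may be technical.

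U1, U2, U4 and U5 are spliceosomal RNAs, which with U6 remove introns from messenger RNA precursors: U1 pairs with the start of an intron, U2 with its branch point, and U4 carries U6 into the complex. The scaRNAs (small Cajal body RNAs) guide chemical modification of these RNAs. RNA polymerase II makes the spliceosomal RNAs other than U6, whereas RNA polymerase III makes 7SL, 7SK, the Y and vault RNAs, RNase P RNA and RNase MRP RNA. 7SL is the RNA of the signal recognition particle, which brings ribosomes that make secreted and membrane proteins to the endoplasmic reticulum. 7SK holds the elongation factor P-TEFb in an inactive form.

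Library totals ran from 6452791 to 8752501 counts. The summed CPM (counts per 1000000 of the scaled library total) of 8 muscle fibre markers was 166304 to 173735 in the injured group and 181793 to 188174 in the non-injured group, with 0 of 8 past the test. Macrophage markers summed to 66.6 to 133.6 CPM in the injured and 24.0 to 29.3 in the non-injured libraries. Of 5 tested, 3 rose without the letter block described below and 5 with it. Fibroblast markers summed to 413.1 to 690.0 against 160.2 to 208.7 CPM, with 2 of 4 past the test, both higher in the injured group. Adipocyte markers summed to 9.26 to 15.5 against 18.1 to 35.6 CPM, and 0 of 3 fell without the letter block and 2 of 3 with it. Erythroid markers summed to 122.7 to 309.0 against 59.97 to 137.0 CPM, overlapping, and 1 of 4 rose without and 4 of 4 with that block. Endothelial markers overlapped, with 0 of 3 called in either fit. In bulk tissue, fewer cells of a type and less RNA per cell cannot be told apart, and the part of other cell types in the small RNA results was not tested.

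Names in this class are mostly model numbers, so families were read from the symbol, from the scaRNA biotype or from the closest named sequence in GENCODE M21. The members comprised 17 U1, 11 U2, 4 U5, 1 U11 and 1 U12 rows, 10 scaRNA rows, 6 7SL and 13 7SK rows. Single rows were RNase P RNA (Rpph1), RNase MRP RNA (Rmrp), telomerase RNA (Terc) and vault RNA (Vaultrc5), and 2 rows were Y RNAs. A further 7 rows matched no named gene of these families. Among these, Gm24265 and Gm24407 carry the sequence of U4 and are called the U4 pair below, a reading made after their values were seen.

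The sequences of 5 spliceosomal RNAs on which the results turn follow, from the GENCODE M21 transcripts (mouse build GRCm38, mm10), 5′ to 3′ in DNA letters. Capitals mark, in the U1 rows, the stretch that pairs with the start of the intron (ACTTACCTG) and the site where the ring of Sm proteins binds (AATTTGTGG). They mark the branch point recognition stretch (GTAGTA) in U2 and the Sm site (AATTTTTGA) in U4.
Gm23804: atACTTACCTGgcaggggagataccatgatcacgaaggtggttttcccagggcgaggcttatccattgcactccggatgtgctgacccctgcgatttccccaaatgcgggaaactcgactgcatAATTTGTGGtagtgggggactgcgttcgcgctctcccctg
Gm22614: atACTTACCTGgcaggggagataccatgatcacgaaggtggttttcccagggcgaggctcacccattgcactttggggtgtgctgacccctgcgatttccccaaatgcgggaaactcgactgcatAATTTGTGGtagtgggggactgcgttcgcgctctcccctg
Gm24950: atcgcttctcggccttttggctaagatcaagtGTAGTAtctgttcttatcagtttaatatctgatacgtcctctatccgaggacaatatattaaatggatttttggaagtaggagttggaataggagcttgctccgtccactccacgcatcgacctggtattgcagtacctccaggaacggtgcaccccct
Gm24265: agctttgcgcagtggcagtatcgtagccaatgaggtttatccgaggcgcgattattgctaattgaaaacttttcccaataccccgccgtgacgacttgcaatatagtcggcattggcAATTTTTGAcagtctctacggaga
Gm24407: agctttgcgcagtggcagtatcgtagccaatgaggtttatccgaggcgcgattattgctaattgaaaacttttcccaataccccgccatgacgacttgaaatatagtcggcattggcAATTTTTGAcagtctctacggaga
Gm23804 is a U1a-type row at chr12:54714218-54714381 on the plus strand, and its 164 bases are identical to those of the named gene Rnu1a1. Gm22614 is a U1b-type row of 165 bases at chr3:96488729-96488893. Both U1 stretches were present in 17 of 17 U1 rows, against 3.98% (ACTTACCTG) and 4.70% (AATTTGTGG) of the 1383 snRNA transcripts of GENCODE M21, searched on the transcript strand only. GTAGTA was present in 11 of 11 U2 rows and in 3.69% of those transcripts, and AATTTTTGA in both U4 rows and in 0.795%. Most U1 rows and all U2 rows were placed by sequence match, and the U4 pair was named from its sequence. The stretches are thus no independent support for the names, and the 1383 transcripts include these rows. Counted from 1 at the 5′ end, the U4 pair differs by the substitutions G88A and C99A, with Gm24265 as the reference.

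The scaRNAs had the most members past the blocked test, and 3 of their sequences follow as examples. They do not stand for the whole class: Gm25395, not printed, matched Scarna6 at 92.9% identity over 10% of its length. No stretch is marked, so the sequences are in lower case throughout.
Scarna13: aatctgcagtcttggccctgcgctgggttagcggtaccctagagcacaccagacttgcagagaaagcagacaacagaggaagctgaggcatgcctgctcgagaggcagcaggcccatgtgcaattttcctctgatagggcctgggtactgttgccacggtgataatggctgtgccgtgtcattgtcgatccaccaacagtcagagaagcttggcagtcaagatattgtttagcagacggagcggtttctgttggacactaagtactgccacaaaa
Scarna6: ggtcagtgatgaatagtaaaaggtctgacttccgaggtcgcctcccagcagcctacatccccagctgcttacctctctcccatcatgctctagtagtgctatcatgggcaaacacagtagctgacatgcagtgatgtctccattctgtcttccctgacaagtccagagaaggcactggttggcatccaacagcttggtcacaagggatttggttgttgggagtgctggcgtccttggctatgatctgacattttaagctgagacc
Gm22767: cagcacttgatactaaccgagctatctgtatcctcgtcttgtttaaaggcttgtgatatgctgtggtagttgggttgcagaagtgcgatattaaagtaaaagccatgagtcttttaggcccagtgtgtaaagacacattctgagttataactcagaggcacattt

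The members took a mean of 14.4% ± 2.67 (SD, n = 3) of all counts in the injured group, against 12.7% ± 1.10 without injury. By letter, in the order A, B, C used for all values below, the injured libraries had 11.4%, 15.5% and 16.4% and the non-injured 11.7%, 13.9% and 12.6%, so the groups overlapped. Most of this was 7SL, with 9.28%, 12.7% and 13.5% of the total after injury, against 8.93%, 10.8% and 9.03%. Of 20 shares compared, including sums that overlap, 3 did not overlap between groups, and all 3 were lower in the injured group. Among single genes, the CPM of the groups lay apart and lower for 9.61% and apart and higher for 11.9%. U2 took 0.170%, 0.257% and 0.261% of counts in the injured libraries and 0.289%, 0.302% and 0.343% in the non-injured ones. The scaRNAs together took 0.0738%, 0.0925% and 0.0898%, against 0.105%, 0.109% and 0.138%. The U4 pair took 0.0702%, 0.143% and 0.133%, against 0.152%, 0.173% and 0.192%. Shares and ratios are given without a p-value, since the smallest p of an exact permutation test of 3 against 3 libraries is 0.1.

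Injured was compared with non-injured across 16095 genes with edgeR's quasi-likelihood test, and 69 of the 76 members had enough counts to be tested. A single member passed a Benjamini-Hochberg adjusted p of 0.05, the U1b-type row Gm22614, which fell. Of all genes tested, 0.0311% were called lower. None of the 69 was called higher, against 0.715% of all genes; 1 member was higher and 16 were lower at an unadjusted p under 0.05, where all genes gave 9.25% and 6.11%. DESeq2 called 1 member higher and 7 lower (all genes 1.57% and 0.466%), and limma-voom called 0 higher and 1 lower (all genes 0.329% and 0.0373%). Both groups carry the same letters, but the labels do not say that these pair the libraries, so the pairing is an assumption. With the letter as a block in the same edgeR test, 14 of the 69 members fell and 1, Rn7s1, rose. The background of that test was 2.65% of genes lower and 3.21% higher. Abundant genes were called lower more often in it: 4.55% of genes averaging 50 counts or more and 16.1% of those averaging 1000 or more, where 14 of 51 and 6 of 22 members fell. Log2 fold changes with an SE below are from the fit without the block, also where a blocked adjusted p stands beside them.

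Of the 69 log2 fold changes, 52 were negative and 17 positive, with a median of -0.25, a lowest value of -1.09 and a highest of 0.68, while the median over all genes tested was 0.00. The negative share was 75.4% of members and 49.8% of all genes, but 75.5% of genes with a mean of at least 1000 counts, where members had 72.7%. Those abundant genes had a median of -0.14 and the 22 members at that level a median of -0.27. The CPM of the groups did not overlap for 15 members that were lower and 1 that was higher, which is 21.7% lower against 9.61% of all genes. Of genes averaging 1000 counts or more, 24.9% lay apart and lower, and of members at that level 8 of 22. The families did not share a sign: all 10 scaRNA rows were negative and all 6 7SL rows positive.

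**Figure D1:**
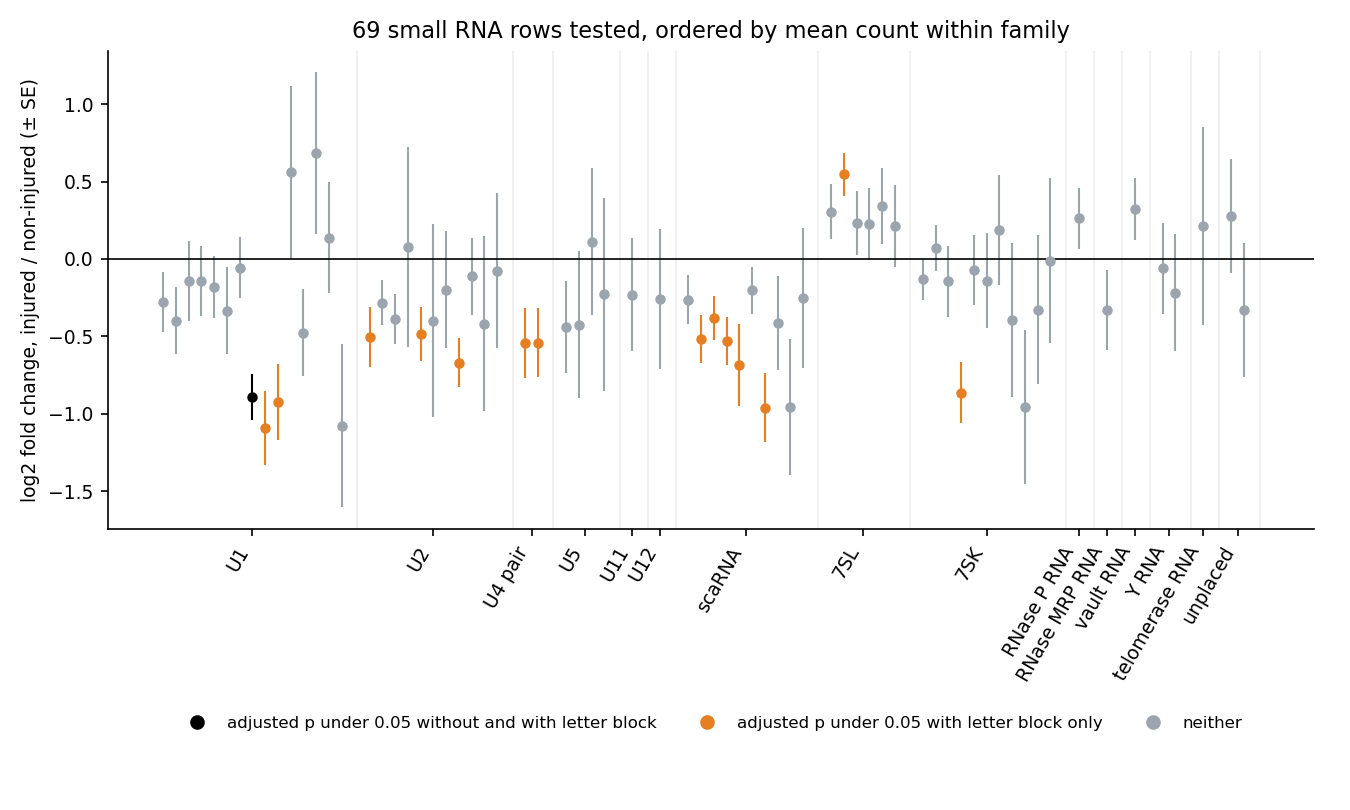
Log2 fold change of injured over non-injured with its SE (vertical axis) for the 69 small RNA rows tested, 1 point a row, grouped by family on the horizontal axis. The single black point, Gm22614, passed the edgeR test without the letter block, and the 14 orange points passed with it, 13 below 0 and 1, Rn7s1, above.

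Among the scaRNAs, 5 of 10 fell with the letter block and 0 without it, where 6 had an unadjusted p under 0.05. Of all genes, 2.65% fell with the block and 6.11% were lower at that unadjusted p. With the block the share was 4.55% of genes averaging 50 counts or more and 16.1% of those averaging 1000 or more. Scarna13 was at 186.0, 226.8 and 233.5 CPM in the injured and at 275.9, 292.6 and 356.9 CPM in the non-injured libraries. Its groups did not overlap, and its log2 fold change was -0.52 ± 0.15 (SE), with an edgeR adjusted p of 0.131 without and 0.00977 with the block. Scarna6 was at 114.2, 124.7 and 147.4 CPM against 171.2, 169.0 and 217.1 CPM. Every injured library was below every non-injured one, by a log2 fold change of -0.53 ± 0.16 (adjusted p 0.131 without and 0.00773 with the block, edgeR). Gm25395 lies with Scarna6 in introns of Atg16l1 on chromosome 1. Its log2 fold change was -0.38 ± 0.14, with an edgeR adjusted p of 0.226 without and 0.0448 with the block.

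Gm22767 changed most among the scaRNA rows called, with 6.58, 7.34 and 8.54 CPM in the injured and 13.4, 12.4 and 18.1 CPM in the non-injured libraries. That is 1.94-fold lower without overlap, at an edgeR adjusted p of 0.0681 without and 0.0101 with the block. Gm26083 was at 25.1, 46.6 and 62.5 CPM against 57.7, 68.9 and 89.2 CPM. Its groups overlapped, since injured C lay above non-injured A, but the injured library was lower in each letter pair. The edgeR adjusted p was 0.244 without and 0.00547 with the block. The other 5 had log2 fold changes from -0.96 to -0.20 and passed neither test. They were Scarna2, the scaRNA with the most counts (log2 fold change -0.26), Gm22009, Gm25820, Scarna3b and Gm23119. The summed scaRNA counts gave a log2 fold change of -0.43 ± 0.15, with an edgeR adjusted p of 0.208 without and 0.0283 with the block.

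**Figure D2:**
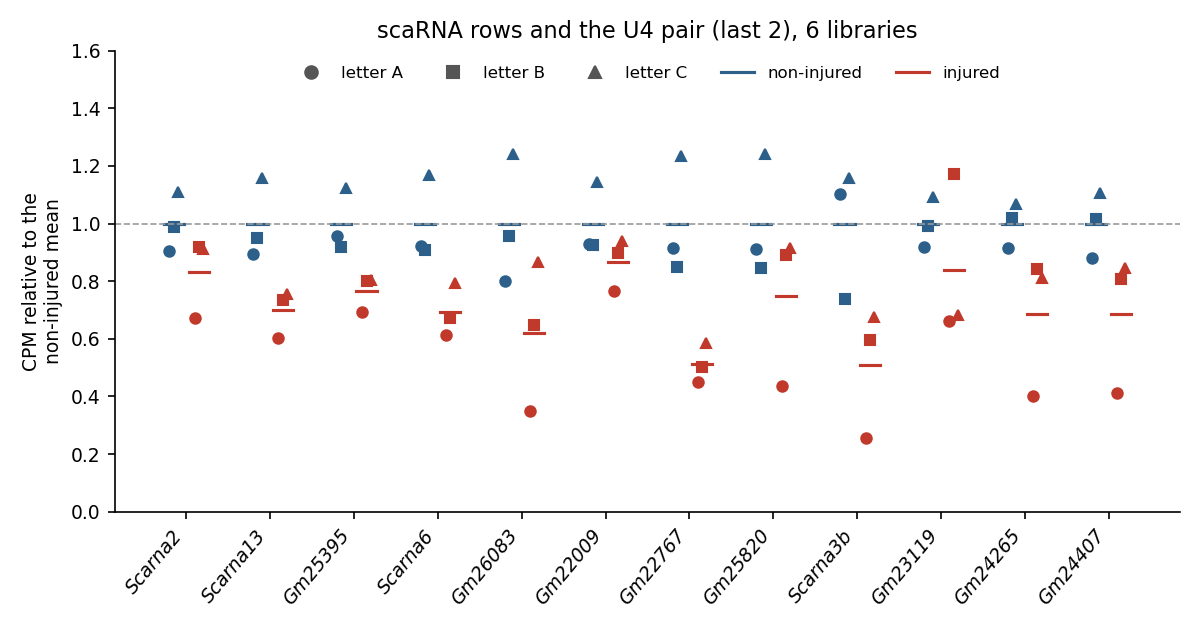
CPM of the 10 scaRNA rows and the U4 pair in each library, divided by the mean of the 3 non-injured libraries (vertical axis), with short lines for group means and symbols for the letters. All 12 injured means lie below 1, and injured library A is the lowest point of every row.

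Most scaRNAs are cut from introns of host genes, so the hosts were set beside them. Atg16l1, a gene of autophagy and the host of Scarna6 and Gm25395, had a log2 fold change of -0.32 ± 0.15 (edgeR adjusted p 0.328, 0.129 with the block). Ppp1r8, a nuclear phosphatase regulator that holds Gm22767, had -0.13 ± 0.19 where Gm22767 had -0.96. The non-coding host Snhg20 fell with the block, with a log2 fold change of -0.49 ± 0.17 (edgeR adjusted p 0.195, 0.0161 with the block). Its exons overlap Gm26083, so counts of both can come from the same reads. Kpna4, a nuclear import receptor that holds Gm22009, had -0.24 ± 0.18 where Gm22009 had -0.20. Khdc4 holds Gm25820 and had -0.26 ± 0.14, without overlap of the groups, where Gm25820 had -0.41. Neither host passed a test. Snhg10, which holds Scarna13, was not analysed here. Dcaf5 holds Scarna3b and had -0.06 ± 0.17 where Scarna3b had -0.96 ± 0.44. A test of member against host was not run.

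The U1 rows were 9 of the U1a type, the main form of mouse U1, and 8 of the U1b type, a form that differs in a few bases and is known from embryonic tissue. Of 15 tested, 12 had a negative and 3 a positive log2 fold change. In the edgeR test 1 fell without and 3 with the block, where all genes gave 0.0311% and 2.65%. The summed U1 counts gave -0.32 ± 0.20 (edgeR adjusted p 0.496, 0.127 with the block). The row with the most counts, Gm23804, was at 2254, 3810 and 4102 CPM after injury and at 3735, 4087 and 4496 CPM without it. Injured A was far below the rest and the groups overlapped. Gm22513, which differs from Gm23804 by T60C, was at 1948, 3548 and 3897 CPM against 3570, 4166 and 4650 CPM. Its log2 fold change was -0.40 ± 0.22 (edgeR adjusted p 0.409, 0.0614 with the block).

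Gm22614 was at 21.4, 21.8 and 18.1 CPM in the injured and 38.2, 38.4 and 37.4 CPM in the non-injured libraries. The groups were far apart, and the row was 1.86-fold lower in the injured group (log2 fold change -0.89 ± 0.15, edgeR adjusted p 0.0157, 0.00127 with the block). The adjusted p was 0.0760 without injured library C, 0.0644 without non-injured B and 0.108 without non-injured C. Gm25890, on the opposite strand at chr3:96486555-96486719, has the same 165 bases letter for letter. It was at 142.3, 279.2 and 281.5 CPM against 215.2, 272.7 and 286.9 CPM. These groups overlapped, with a log2 fold change of -0.14 ± 0.23 (edgeR adjusted p 0.814). Reads inside identical copies cannot be told apart, so how the counts were divided between such rows is uncertain.

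Several rows had this relation to an identical row with more counts, but not all: Rnu1b2 and Gm23472, each with fewer counts than its identical partner, had overlapping groups. Gm25679, Gm22317 and Gm22634 have the same 164 bases as Gm23804, yet their mean counts ran from 27821 for Gm23804 down to 141 for Gm25679, 132.1 for Gm22317 and 7.31 for Gm22634, which was too low to test. Gm25679 was at 17.1, 8.28 and 10.4 CPM in the injured and 25.2, 22.2 and 28.9 CPM in the non-injured libraries. Its log2 fold change was -1.09 ± 0.24 (edgeR adjusted p 0.0587, 0.00293 with the block), where Gm23804 had -0.28 ± 0.20. Gm22317 was at 17.6, 8.45 and 10.3 CPM against 26.3, 22.4 and 19.9 CPM and fell with the block (edgeR adjusted p 0.0964, 0.00601 with the block). Rnu1b6 has the bases of Gm26232, and its log2 fold change was -1.08 ± 0.53 where Gm26232, with 163.8 times the counts, had -0.14 ± 0.26. Neither passed the test, and the difference between identical rows was not tested.

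**Figure D3:**
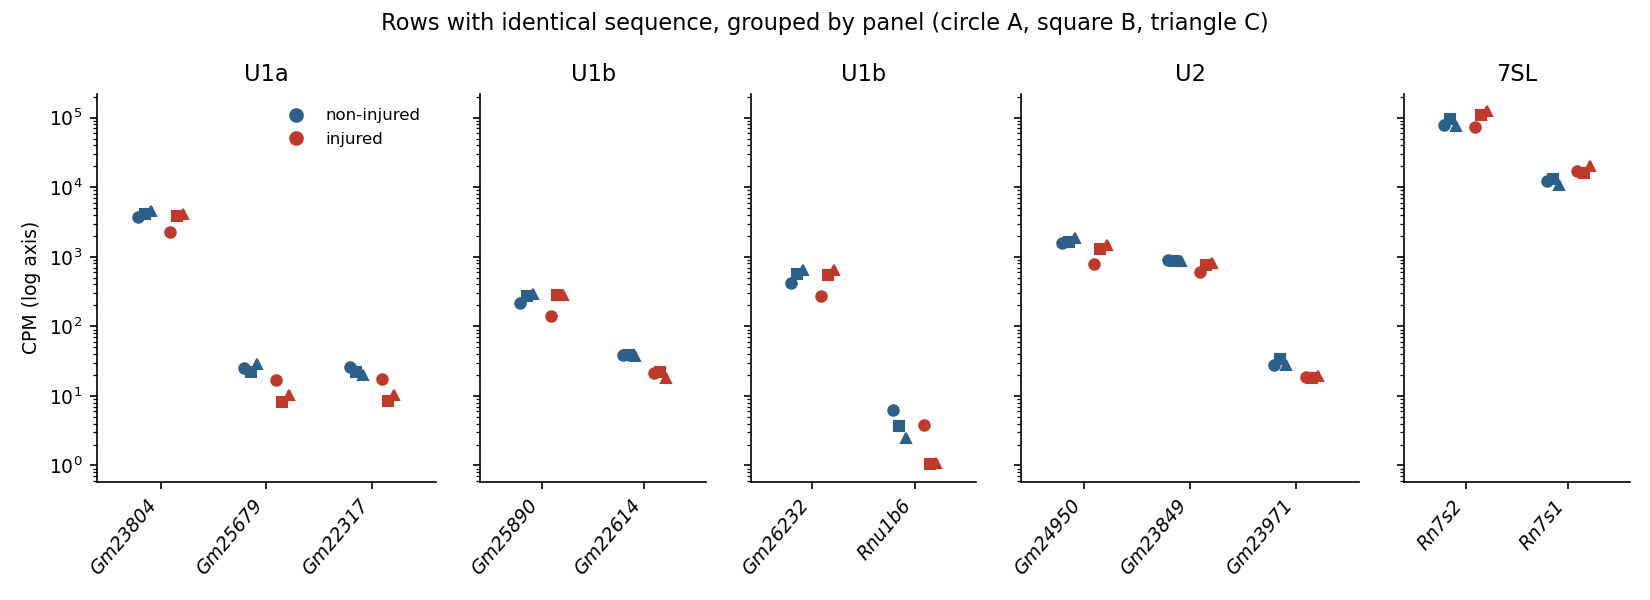
CPM on a log axis in the 6 libraries for rows whose sequences are identical within a panel, with Gm22634 left out as too low to test and the pairs Rnu1b1 with Rnu1b2 and Gm23444 with Gm23472 not drawn. In the U1 and U2 panels drawn the row with fewest counts has its 3 injured libraries below the non-injured ones except for Rnu1b6, whose groups overlap, and in the 7SL panel Rn7s1 has its injured libraries above.

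Rnu1b1 and Rnu1b2, a pair with the same 165 bases, were the 2 highest log2 fold changes among the members, at 0.56 ± 0.56 and 0.68 ± 0.52. Rnu1b1 was at 19.0, 14.2 and 13.4 CPM in the injured libraries and at 24.5, 2.69 and 4.59 CPM in the non-injured ones. Only non-injured A was high in that group, so the groups overlapped and the edgeR adjusted p was 0.690. Rnu1b2 was at 11.6, 9.78 and 6.25 CPM against 12.3, 3.14 and 1.79 CPM, with non-injured A again the highest. Without non-injured library A the log2 fold changes were 2.10 (edgeR adjusted p 0.00546) for Rnu1b1 and 1.88 (adjusted p 0.0367) for Rnu1b2. The counts of U1a-type rows per count of U1b-type rows were 9.25, 8.70 and 8.50 in the injured and 10.6, 9.57 and 9.76 in the non-injured libraries, lower in the injured group without overlap.

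U2 had 10 negative log2 fold changes of 11, and 3 rows fell with the block. Of all genes 2.65% did so, and 16.1% of those averaging 1000 counts or more. Gm24950, a row of chromosome 11 with the most U2 counts, was at 799.9, 1300 and 1455 CPM in the injured and 1555, 1609 and 1876 CPM in the non-injured libraries. The injured libraries were all lower (log2 fold change -0.50 ± 0.20, edgeR adjusted p 0.247, 0.0234 with the block). Gm23849 and Gm23971 have the same 191 bases as Gm24950. Gm23849 was at 595.6, 761.3 and 822.9 CPM against 908.4, 881.9 and 859.3 CPM, without overlap, and passed neither test. Gm23971 was at 18.9, 17.9 and 19.6 CPM against 27.5, 34.2 and 28.0 CPM, a log2 fold change of -0.67 ± 0.16. Its edgeR adjusted p was 0.0697 without and 0.0157 with the block. Gm25939, on chromosome 1, was at 65.3, 59.1 and 57.5 CPM against 106.2, 65.3 and 83.2 CPM. Its lowest non-injured library was level with its highest injured one, and its edgeR adjusted p was 0.208 without and 0.0375 with the block. The summed U2 counts gave -0.40 ± 0.18, with an adjusted p of 0.294 without and 0.0536 with the block (edgeR).

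Both U4 rows fell with the block, as did 16.1% of genes averaging 1000 counts or more. Gm24265, at chr5:115489459-115489599, was at 367.6, 772.3 and 744.3 CPM in the injured and 838.3, 933.9 and 977.7 CPM in the non-injured libraries. Gm24407, at chr5:115490254-115490394, was at 326.8, 640.8 and 672.1 CPM against 698.8, 806.4 and 878.8 CPM. In both rows every injured library was below every non-injured one and injured A was lowest. Their log2 fold changes were -0.55 ± 0.23 and -0.54 ± 0.22. The edgeR adjusted p-values were 0.277 and 0.279 without the block and 0.0227 and 0.0173 with it. Summed, the pair gave -0.54 ± 0.22 (adjusted p 0.272, 0.0201 with the block, edgeR). U5, which aligns the exon ends during splicing, was low in these libraries: its 4 rows summed to 6.80, 12.7 and 16.4 CPM against 13.9, 14.6 and 16.7 CPM, and none passed a test. Rnu11 and Rnu12 belong to the minor spliceosome, which removes a rare class of introns. Rnu11 was at 10.1, 37.5 and 41.5 CPM against 24.6, 37.6 and 42.3 CPM, so the B and C libraries of both groups were alike and the A libraries low. Rnu12 ran from 1.84 to 4.85 CPM, with overlapping groups.

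The letter A libraries stood apart in many of these rows. Of 51 members with a mean of at least 50 counts, 36 were lower in library A than the mean of B and C in both groups, 70.6%, against 31.0% of the 9058 genes at that level. The largest such gap was in U2. Gm23472, on chromosome 1, was at 10.8, 118.3 and 130.0 CPM in the injured libraries, in the order of the letters, and at 23.2, 101.5 and 121.2 CPM in the non-injured ones. Gm23444, on chromosome 11, has the same 191 bases and was at 150.6, 128.6 and 147.0 CPM against 230.1, 162.8 and 164.7 CPM, with no such drop in A. Gm24497 (7.77 and 17.7 CPM in the A libraries, 66.8 to 97.1 in the others) and Gm25813 (0.784 and 4.09 against 8.32 to 11.2) had the pattern of Gm23472. The meaning of the letters was not stated in the labels. Without both A libraries, 4 of 68 members tested fell, Gm22614, Gm25679, Gm22317 and Gm23820, all among the 14 called with the block. In the same fit 3 rose, Rn7s1, Rnu1b1 and Rnu1b2. Of all 16515 genes in it, 132 were called lower and 165 higher.

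**Figure D4:**
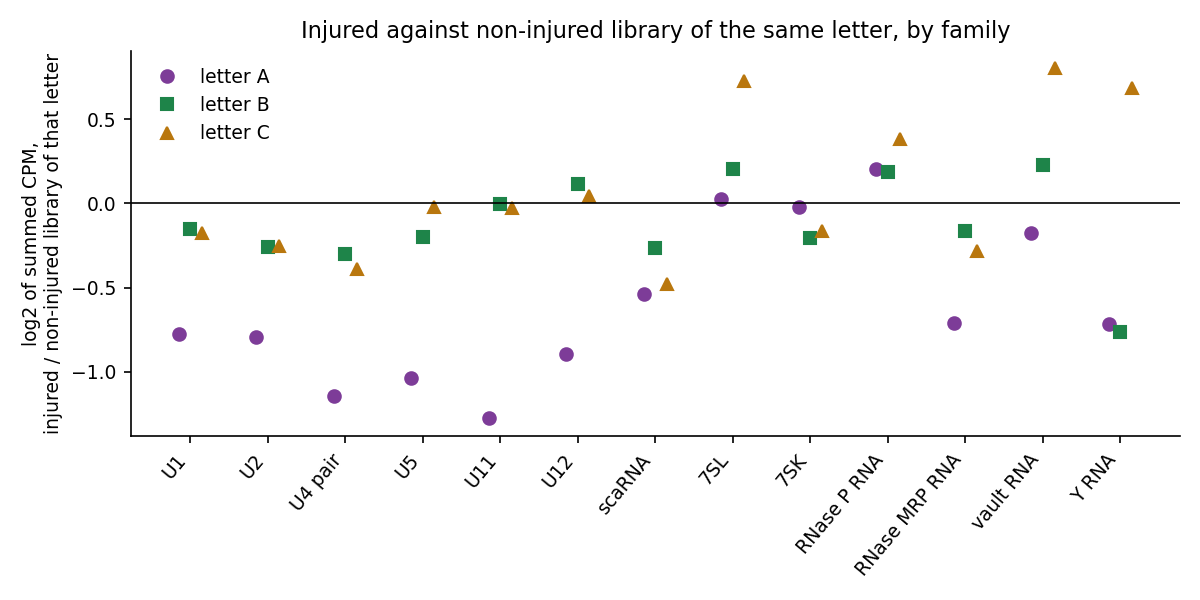
Log2 ratio of summed CPM in the injured over the non-injured library of the same letter (vertical axis), by family (horizontal axis), 1 point for each of the letters A, B and C. U1, U2, the U4 pair, U5, U11, scaRNA, 7SK and RNase MRP RNA are below 0 in all 3 pairs, with letter A lowest in all of these but 7SK. RNase P RNA and 7SL are above 0 in all 3, but 7SL by only 0.026 for letter A.

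The 7SL family leaned the other way. Rn7s1 was at 17078, 15862 and 20101 CPM in the injured and 12450, 13026 and 10864 CPM in the non-injured libraries. All injured libraries were above all non-injured ones, 1.46-fold in the fit (log2 fold change 0.55 ± 0.14, edgeR adjusted p 0.0886, 0.0321 with the block). Its identical copy Rn7s2 held 86.2% of the counts of the pair. It was at 74272, 108207 and 123823 CPM against 77184, 94678 and 76083 CPM. Injured A lay below the non-injured libraries, and the log2 fold change was 0.30 ± 0.18 (edgeR adjusted p 0.447, 0.341 with the block). The 4 other rows, Gm24514, Rn7s6, Gm23153 and Gm26461, had log2 fold changes of 0.21 to 0.34 and overlapping groups. In the letter A pair only Rn7s1 had a log2 ratio above 0 (0.456), and the other rows ran from -0.446 for Gm26461 to -0.055 for Rn7s2. In the B and C pairs every row of the family was above 0. The summed 7SL counts gave 0.34 ± 0.17, with an adjusted p of 0.361 without and 0.246 with the block (edgeR).

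Ratios of counts within a library need no scaling between libraries. They are not ratios of molecules, since the RNAs differ in length, and 13 were formed after the values had been seen, 8 of them without overlap between the groups. Among single genes, CPM lay apart and lower for 9.61% and apart and higher for 11.9%, but no such share was formed for ratios. Several ratios reuse the same 7SL or U2 counts, and families of opposite sign had been seen first. The count of 8 is thus no independent support. The 7SL counts per U2 count were 54.5, 49.2 and 51.9 with and 30.9, 35.7 and 26.3 without injury. All injured libraries were higher, and injured A did not stand apart in this ratio. The 7SL counts per U1 count were 18.8, 14.6 and 15.5 against 10.8, 11.4 and 8.33. The 7SL counts per scaRNA count were 125.8, 136.8 and 150.9 against 85.0, 98.6 and 65.5. In both, the lowest injured library was above the highest non-injured one. RNase P cuts the leader from transfer RNA precursors and RNase MRP processes ribosomal RNA precursors. The counts of RNase P RNA per count of RNase MRP RNA were 0.908, 0.663 and 0.649 against 0.483, 0.520 and 0.408, again higher in the injured group without overlap. The 7SK counts per U2 count were 5.44, 3.02 and 3.08 against 3.19, 2.91 and 2.90, where only injured A stood out and the groups overlapped.

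**Figure D5:**
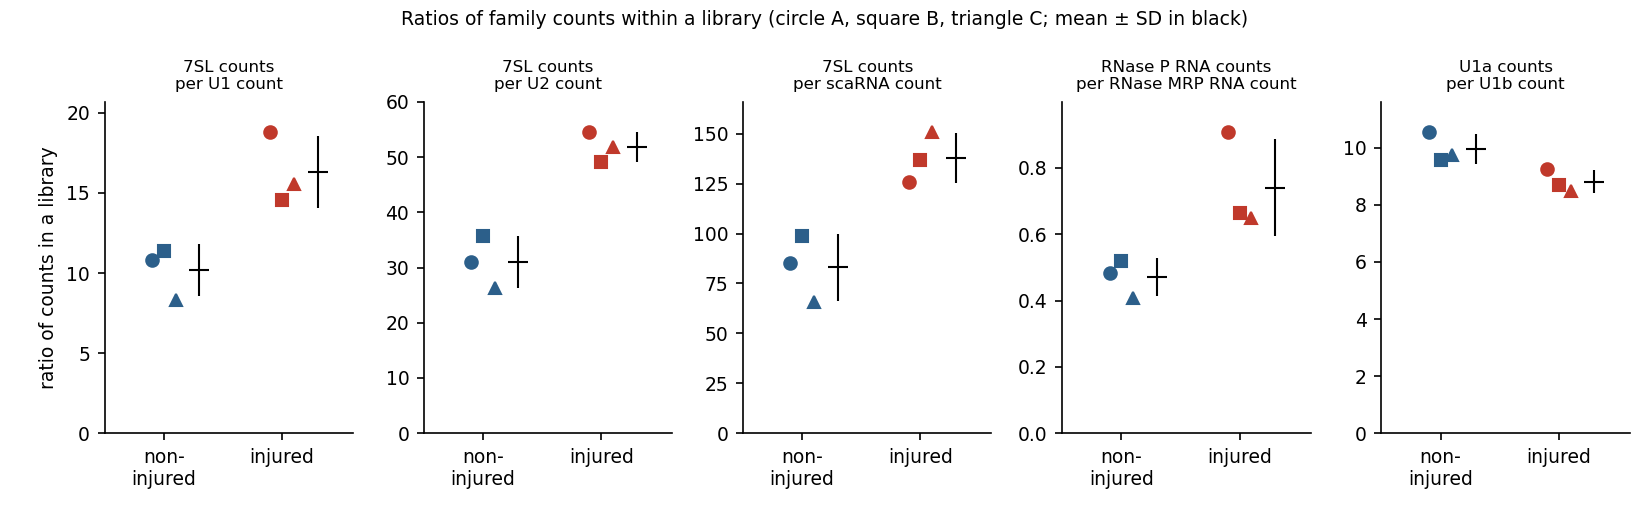
Ratios of summed family counts within each library (vertical axes, starting at 0), with the non-injured libraries on the left and the injured on the right of each panel and the mean ± SD of 3 in black. The first 4 ratios are higher and the ratio of U1a to U1b counts is lower in all 3 injured libraries than in any non-injured one. None of the ratios whose groups overlap is drawn.

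Among the other polymerase III RNAs, Rn7sk had nearly all 7SK counts and was at 8935, 7363 and 8318 CPM in the injured and 9029, 8575 and 9357 CPM in the non-injured libraries. The groups overlapped (log2 fold change -0.13 ± 0.13, edgeR adjusted p 0.691). The other 12 rows of the family match Rn7sk at 70.5% to 100% identity over part of their length, and Gm23820 alone passed a test. This row lies in an intron of Ampd1, the AMP deaminase of muscle, and was at 11.5, 8.41 and 8.83 CPM against 19.4, 16.3 and 16.6 CPM. It was 1.82-fold lower without overlap (edgeR adjusted p 0.0664, 0.00980 with the block). Ampd1 itself was at 434.2, 310.7 and 350.1 CPM against 676.4, 432.8 and 449.9 CPM. It fell with the block too, with a log2 fold change of -0.51 ± 0.19 (edgeR adjusted p 0.227, 0.0130 with the block).

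Rmrp was at 1955, 4067 and 4340 CPM in the injured and 3194, 4563 and 5285 CPM in the non-injured libraries, lower in each letter pair but with overlap (blocked edgeR adjusted p 0.0864). Rpph1 was at 1775, 2697 and 2816 CPM against 1543, 2374 and 2159 CPM, higher in each letter pair but with overlap (blocked adjusted p 0.189, edgeR). The vault RNA Vaultrc5, part of a large particle of the cytoplasm, was at 125.1, 194.7 and 226.6 CPM against 141.2, 165.9 and 129.9 CPM, a log2 fold change of 0.32 ± 0.20. The Y RNAs Rny1 and Rny3, which bind the Ro protein, ran from 3.52 to 11.5 CPM and their groups overlapped. Terc had a mean of 12.8 counts per library, too few to place the groups. The 22 tested rows of the polymerase III families had 12 negative and 10 positive log2 fold changes, with a median of -0.04. Of these rows 11 were of the 7SK family, with 9 negative values, and all of them but Rn7sk are partial matches to it. Whether polymerase III makes such rows was not tested, so the count is not one of known polymerase III products. The 34 tested spliceosomal rows had 29 negative and 5 positive, with a median of -0.31. Of all genes tested 49.8% were negative, and 75.5% of those averaging 1000 counts or more. Many U1 and U2 rows are near-identical copies whose reads are hard to place, so these rows are not separate observations.

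The proteins that make, assemble or bind these RNAs were followed in 10 lists, whose 160 tested genes gave 0 calls in either direction without the block. At an unadjusted p under 0.05, 4 were higher and 10 lower in the edgeR test, and DESeq2 called 1 higher and 0 lower. With the block, 2 rose and 2 fell. As shares of 160 these are 2.50% higher and 6.25% lower at the unadjusted p, where all genes gave 9.25% and 6.11%, and 1.25% each way with the block, where all genes gave 3.21% and 2.65%. Mvp, the main protein of the vault particle, was at 28.9, 33.5 and 31.0 CPM in the injured and 19.9, 21.01 and 17.7 CPM in the non-injured libraries. It was 1.59-fold higher without overlap (edgeR adjusted p 0.0655, 0.0109 with the block). Gtf3a, the factor that starts transcription of 5S ribosomal RNA genes by polymerase III, was at 13.3, 10.2 and 14.0 CPM against 5.29, 8.37 and 6.70 CPM (edgeR adjusted p 0.101, 0.0340 with the block). Ell2, an elongation factor of polymerase II that also acts at small nuclear RNA genes, was at 38.1, 31.9 and 40.7 CPM against 48.9, 49.1 and 57.0 CPM. Its groups did not overlap, and it fell with the block (log2 fold change -0.48 ± 0.15, edgeR adjusted p 0.147, 0.0268 with the block). Rnpc3, a protein of the minor spliceosome, had -0.39 ± 0.18 (edgeR adjusted p 0.317, 0.0426 with the block).

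In the list of snRNA transcription factors (the SNAPc and Integrator complexes and others such as Ell2), 20 of 25 log2 fold changes were negative, with a median of -0.22. Over all genes 49.8% were negative, and 60.5% of genes averaging 50 counts or more, whose median was -0.07. With the block 1 of 25, Ell2, fell. The 25 Sm and U1 and U2 proteins had 11 negative values, a median of 0.03 and 0 calls with or without the block. Snrnp70, a core protein of the U1 particle, was at 250.3, 276.0 and 248.9 CPM against 262.1, 284.1 and 234.5 CPM, overlapping. The 22 tri-snRNP and LSm proteins had 11 negative and 11 positive values and no call. Prpf8, the core protein of the spliceosome, had a log2 fold change of -0.02 ± 0.14. The 24 proteins of snRNP assembly and Cajal bodies had a median of -0.04 and no call, with Smn1 at -0.07 ± 0.32 and Coil at -0.04 ± 0.33. The 8 proteins of the 7SK complex and P-TEFb had a median of -0.06 and no call, with Larp7, which binds the 7SK end, at 0.39 ± 0.26, Hexim1 at -0.08 ± 0.15, Mepce at -0.10 ± 0.19 and Cdk9 at 0.22 ± 0.19. The 10 proteins of the signal recognition particle and its receptor had a median of -0.06 and no call. Within it, Srp9 and Srp14 had 0.22 ± 0.16 and 0.10 ± 0.18, and Srp54a had -0.33 ± 0.15. Of 22 genes of polymerase III and its regulators, Gtf3a alone was called with the block, and the polymerase III repressor Maf1 had 0.03 ± 0.17. The 10 proteins of RNase P and RNase MRP had a median of -0.06 and no call. Of 5 Ro, La and vault proteins, Mvp alone was called with the block, and the La protein gene Ssb had -0.06 ± 0.19.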

How the data were processed

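RNA was measured in 6 libraries of quadriceps, 3 injured and 3 non-injured. The deposited values are estimated counts, partly fractional, in 1 table that the authors made. Per the submitters' processing notes, STAR 2.7.8a, Partek, DESeq2 and the builds mm10 and hg19 were involved, with no further detail. Which counter, strand setting and annotation were used is not given in the sources used here. Gene starts match GENCODE M21 on mm10 for 75 of 76 members. Counts were fractional in every library for 36 members, as where a counter shares reads between near-identical or overlapping genes, so their rows are uncertain. The lowest row maximum in the table was 10.0. No column belonged to another sample.

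The values were rounded, filtered with filterByExpr (16095 genes kept), scaled by TMM and tested with edgeR 4.0.16 in R 4.3.3 (quasi-likelihood F test, two-sided, Benjamini-Hochberg over all genes tested, adjusted p under 0.05). The SE of a log2 fold change is its size over the square root of F. The log2 fold changes and their SE are from the fit without the letter block, also where a blocked adjusted p is given. Families were summed in the same table, and U1, U2, U5, 7SL and 7SK rows were matched by BLAST 2.17.0 to named GENCODE genes (e-value up to 1e-05). Libraries of the same letter deviated together over all genes (correlations 0.316, 0.208 and 0.112), so the letters were taken as pairs. Across letters the correlations ran from -0.232 to 0.064. As deviations were taken from the mean of each group, positive correlations within a letter pull those across letters down. The contrast was thus partly fixed in advance, and the pairing was read from the same data that the block was used on. In the 69 members tested, injured B had 0.462 with non-injured B and 0.456 with non-injured C. Injured C had 0.5945 with non-injured C and 0.431 with non-injured B. The members thus set A apart but hardly tell B from C. The values with the letter as a block are given beside each result they change. The letters come from the sample titles. Tested on simulated data of 15432 genes with a letter effect in the counts, the fit recovered 30.0% of 2-fold changes without and 67.0% with the block, with 3 and 9 false calls. With no letter effect simulated (15558 genes), it recovered 69.0% and 70.0%, with 9 and 15 false calls. Changes were simulated only in genes averaging at least 50 counts. The simulated letter effect was shared by the libraries of a letter by construction, so the gain with the block was set in advance. It does not show that the letters pair the real libraries.

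Alternatives were DESeq2 1.42.0, limma-voom (limma 3.58.1), other scalings, filters and denominators, each library left out, and both letter A libraries left out. The U4 pair was summed as an alternative chosen after seeing the data. Named were members called in either fit, the member with most counts in each family and members with a mean of at least 50 counts, which the plot of log2 fold changes holds in full, and partner genes by call, by the 3 smallest p of a list and by role. The members, partner lists and markers were chosen with earlier results of these data known.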

Additional observations from a re-analysis of the deposited data

How the results depend on the processing

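Members called higher and lower were 0 and 1 in the edgeR fit, as with limma-voom, upper quartile scaling, scaling without the members, the library total alone and a mean of at least 50 counts. They were 1 and 7 with DESeq2, 0 and 2 without a filter, 1 and 14 with the replicate block on the letters, and 3 and 4 without both letter A libraries. Leaving out 1 library at a time gave 0 to 2 higher and 0 to 3 lower. Over all genes, the calls higher and lower were 123 and 17 of 20015 without a filter. They were 165 and 132 of 16515 without both letter A libraries. With 1 library left out they ran from 20 to 104 and from 0 to 25, of 16631 to 17485 genes. Summed families gave 0 calls except 1 lower, scaRNA, with the replicate block, where the added sum of the U4 pair was lower too (-0.61). Partner genes gave 1 higher, Mvp, with DESeq2, upper quartile scaling, a mean of at least 50 counts and without the letter A libraries, and 2 higher and 2 lower with the replicate block.

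The 15 members called with the block kept their direction in every alternative, and 35 of 54 named members did. Leaving out 1 library, the log2 fold change ran from -0.32 to 0.10 for Gm25890, from -0.43 to 0.13 for Gm26232 and from -0.081 to 0.48 for the 7SL row Gm26461. It ran from -0.11 to 0.030 for Prpf8, -0.31 to 0.29 for Smn1, -0.29 to 0.16 for Coil, -0.32 to 0.00421 for Mepce, -0.016 to 0.23 for Srp14, -0.14 to 0.13 for Maf1, -0.19 to 0.080 for Ssb and -0.17 to 0.095 for Dcaf5. The sign also changed with upper quartile scaling for Prpf8 (0.029) and Coil (0.00428), with limma-voom for Smn1 (0.018) and without a filter for Maf1 (-0.015). It changed at a mean of at least 50 counts for Prpf8 (0.049), Ssb (0.00792) and Dcaf5 (0.016), and without the letter A libraries for Smn1 (0.34), Mepce (0.020), Ssb (0.042) and Dcaf5 (0.16). None of these genes passed the test in any of these fits. The U1 sum over the 3 symbol-named rows was 0.38, against -0.32 over all 17. The log2 ratio of the members' mean shares was 0.18, and -0.23 once 7SL was left out of members and total. With the replicate block, the mean log2 ratio over the letter pairs was 0.17. The cause of these changes was not tested.

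Rows under 50 counts, such as Terc, Rnu12 and U5, give wide errors, and 7 members were too low to test.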
